A study of Mus musculus with 16 samples.

Results

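The thrombospondins are a family of 5 genes in the mouse, Thbs1, Thbs2, Thbs3, Thbs4 and Comp, the last of which encodes thrombospondin 5. They were taken from a table of read counts for 55573 genes by matching the Ensembl gene identifiers to these 5 symbols. All 5 passed the filter on low counts, which left 19955 genes for the fit. The members were chosen by their measured changes with pressure overload and with deletion of Trbp in these same 16 hearts, where they had moved in opposite directions, so the differences between groups are given for its 5 genes as a description, with no test.

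Thrombospondins are large secreted calcium-binding glycoproteins of the extracellular matrix. Thbs1 and Thbs2 assemble as trimers, carry the type 1 repeats that gave the family its name and bind CD36, CD47 and integrins. Thbs1 is known for activating latent TGF-β and for inhibiting the growth of new vessels, and Thbs2 for regulating the assembly of collagen fibrils and the clearance of matrix metalloproteinases. Thbs3, Thbs4 and Comp assemble as pentamers and lack the type 1 repeats. Thbs4 is known in the heart as a gene induced by pressure overload and as a partner of the endoplasmic reticulum stress sensor Atf6, and Comp as a cartilage and tendon protein that organizes collagen fibrils.

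The hearts came from male mice carrying the αMHC-MerCreMer transgene and floxed alleles of Trbp (Trbp-Flox/Flox), in which the αMHC promoter restricts Cre to cardiomyocytes. Injection of tamoxifen (30 mg/kg, once a day for 5 days from the age of 4 weeks) gave the Trbp-cKO mice, and injection of corn oil gave the controls. Mice of both kinds then had sham surgery or transverse aortic constriction (TAC), which loads the left ventricle with pressure, and ventricles were collected about 8 weeks later, when the mice were 16 weeks old, giving 4 hearts in each of 4 groups. Every Trbp-cKO mouse had received tamoxifen and no control had, so the deletion and the drug cannot be told apart here. Tamoxifen-treated mice without the transgene were not analysed here. Other cell types of the ventricle, fibroblasts among them, keep Trbp in this model.

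The libraries held 45166994 to 68274222 counts. Levels are given as CPM, the read counts of a gene scaled to a common library size adjusted by the TMM method, and values of single hearts follow the order of replicates 1 to 4. Tarbp2, the gene of Trbp, lay between 21.1 and 33.3 CPM in the 8 control hearts and between 7.14 and 11.4 CPM in the 8 Trbp-cKO hearts. Control TAC replicates 1 and 2 stood apart from the other 14 hearts. Their summed CPM of 10 cardiomyocyte markers were 30648 and 24562, against 45518 to 61689.8 in the others, and they also held the lowest Tarbp2 among the controls, at 25.2 and 21.1 CPM. The markers of activated fibroblasts summed to 594 and 652 CPM in this pair and to 272 and 335 CPM in control TAC replicates 3 and 4. Trbp-cKO TAC replicate 4 had the highest such sum of all hearts, 1952 CPM. It also had the highest sum of cartilage and tendon markers, 51.8 CPM against 29.6 to 38.7 CPM in the rest of its group, and the lowest sum of skeletal muscle markers, 1218 CPM against 4278 to 9373 CPM. Of the skeletal muscle markers, Myh1, Myh2 and Myh4 had too few counts to be tested, so this sum came almost wholly from the others. Smooth muscle markers summed to 3487 to 3910.3 CPM in Trbp-cKO TAC hearts and to 1279 to 2626 CPM in the other 12. Muscle genes did not all follow that sum. With TAC in Trbp-cKO hearts, log2 fold changes were -0.1 for Acta2, -0.02 for Myh11 and 0.02 for Myocd. They were 0.82 for Tagln, 1.29 for Cnn1 and 1.23 for Des, so the sum is no measure of smooth muscle cells alone. Endothelial markers summed to 1433 and 1570.1 CPM in control TAC replicates 1 and 2 and to 637 to 1169 CPM in the other 14. The part of these cell type markers in the levels of the thrombospondins was not tested. Markers of atrial tissue summed to 1.21 to 2.95 CPM in 12 hearts and to 4.42 to 7.88 CPM in the 4 Trbp-cKO TAC hearts. Of these markers, Sln and Bmp10 had too few counts to be tested. With TAC in Trbp-cKO hearts, log2 fold changes were 1.32 for Myl4 (edgeR adjusted p = 0.00103) and 2.4 for Myl7 (0.0863). The source of this higher sum was not tested. Markers of platelets, a rich source of Thbs1 protein, summed to 8.96 to 18.8 CPM. In whole ventricles, fewer cells of a type and less RNA per cell cannot be told apart.

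The genes lie on 5 chromosomes of GRCm38. Thbs1 spans chr2:118111876-118127133 on the plus strand, Thbs2 chr17:14665500-14694235 on the minus strand, Thbs3 chr3:89215180-89226837 on the plus strand, Thbs4 chr13:92751590-92794818 on the minus strand and Comp chr8:70373558-70382066 on the plus strand. Their longest annotated coding sequences encode 1171, 1172, 956, 963 and 755 residues. No other gene shares exon sequence with Thbs2, Thbs4 or Comp. Of the exon bases of Thbs3, 6.59% also belong to its antisense neighbour Mtx1, and 3.42% of those of Thbs1 belong to the antisense Gm29233. Whether reads were counted by strand is not given in the sources used here, so reads from those bases cannot be told apart.

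Promoter sequences of Thbs2, Thbs3 and Thbs4 are shown, the members of the family with an entry in the RefSeq promoter table used. Thbs4 and Thbs3 were higher and Thbs2 lower in control TAC than in control sham hearts. Each holds the 250 bases before the RefSeq transcription start in GRCm38.p6, written 5′ to 3′ on the strand of the gene. They lie at chr17:14694263-14694512 (minus strand), chr3:89214930-89215179 (plus strand) and chr13:92794819-92795068 (minus strand). Capitals mark matches, on either strand, to the motifs searched.
Thbs2: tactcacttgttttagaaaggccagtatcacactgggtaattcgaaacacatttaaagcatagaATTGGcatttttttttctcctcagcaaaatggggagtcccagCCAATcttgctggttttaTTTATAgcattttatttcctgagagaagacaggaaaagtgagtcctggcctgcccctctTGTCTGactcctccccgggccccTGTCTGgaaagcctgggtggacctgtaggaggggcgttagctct
Thbs3: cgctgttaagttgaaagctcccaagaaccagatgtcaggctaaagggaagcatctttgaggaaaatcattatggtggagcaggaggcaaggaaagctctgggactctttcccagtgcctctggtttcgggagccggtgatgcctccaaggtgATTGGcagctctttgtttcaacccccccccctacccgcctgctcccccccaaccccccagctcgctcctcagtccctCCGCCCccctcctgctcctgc
Thbs4: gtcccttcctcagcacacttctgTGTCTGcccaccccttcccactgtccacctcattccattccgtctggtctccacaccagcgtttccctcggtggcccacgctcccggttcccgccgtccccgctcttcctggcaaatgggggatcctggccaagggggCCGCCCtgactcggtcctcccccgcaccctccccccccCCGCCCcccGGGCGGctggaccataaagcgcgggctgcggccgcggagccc

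The motifs searched were TATAAA (the TATA box), GGGCGG (the GC box), CCAAT (the CCAAT box), CACGTG (the E-box of the clock factors), TGACTCA with its reverse complement TGAGTCA (the AP-1 site), TGACGTCA (the CREB site), and the Smad sites CAGACA and GTCTAGAC. A match to either form of the AP-1 site is a match to the other. The Thbs2 window was the only one of the 3 with a TATAAA match, 126 bases before the start, and it also held CCAAT at 186 and 144 bases and CAGACA at 67 and 44 bases before it. The Thbs3 window held CCAAT at 98 and GGGCGG at 21 bases before the start. The Thbs4 window held GGGCGG at 89, 51 and 42 bases and CAGACA at 227 bases before the start. The E-box, the AP-1 and CREB sites and GTCTAGAC had no match in the 3 windows. Among 32851 promoter windows of the same length, 12.4% held TATAAA, 32.7% GGGCGG, 33.8% CCAAT, 17.1% CAGACA, 6.02% CACGTG, 4.46% TGACTCA, 1.55% TGACGTCA and 0.167% GTCTAGAC. The GC content was 46.8% for Thbs2, 58.8% for Thbs3 and 70.8% for Thbs4, against a median of 52.4% over all windows.

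The make-up of thrombospondin RNA differed from group to group. Levels of different genes were compared as CPM per kb of exon. Thbs1 ranked highest in each of the 4 control sham hearts, where it took 76.9% ± 13.9 (SD, n = 4) of the summed CPM per kb of the family. In each Trbp-cKO sham heart Thbs2 ranked highest, with 33.8% ± 5.43, and Thbs1 fell to 16.3% ± 2.3 of the sum. After TAC, Thbs4 or Comp ranked highest in all 8 hearts. Thbs4 took 38.8% ± 4.12 and Comp 31.9% ± 16.7 in control TAC hearts, and 47.4% ± 8.8 and 41.3% ± 9.89 in Trbp-cKO TAC hearts.

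The sum itself was lowest in Trbp-cKO sham hearts, at 12.5 ± 2.01 CPM per kb (SD, n = 4), and highest in Trbp-cKO TAC hearts, at 176 ± 106. Control sham hearts had 39.2 ± 15.8 and control TAC hearts 43.8 ± 28.6 CPM per kb, with ranges that overlapped. In the control TAC group, replicates 1 and 2 had Comp as the leading member and replicates 3 and 4 had Thbs4. Thbs2 and Thbs3 were the lowest pair in all 8 TAC hearts, and Thbs1 lay above them.

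**Figure D1:**
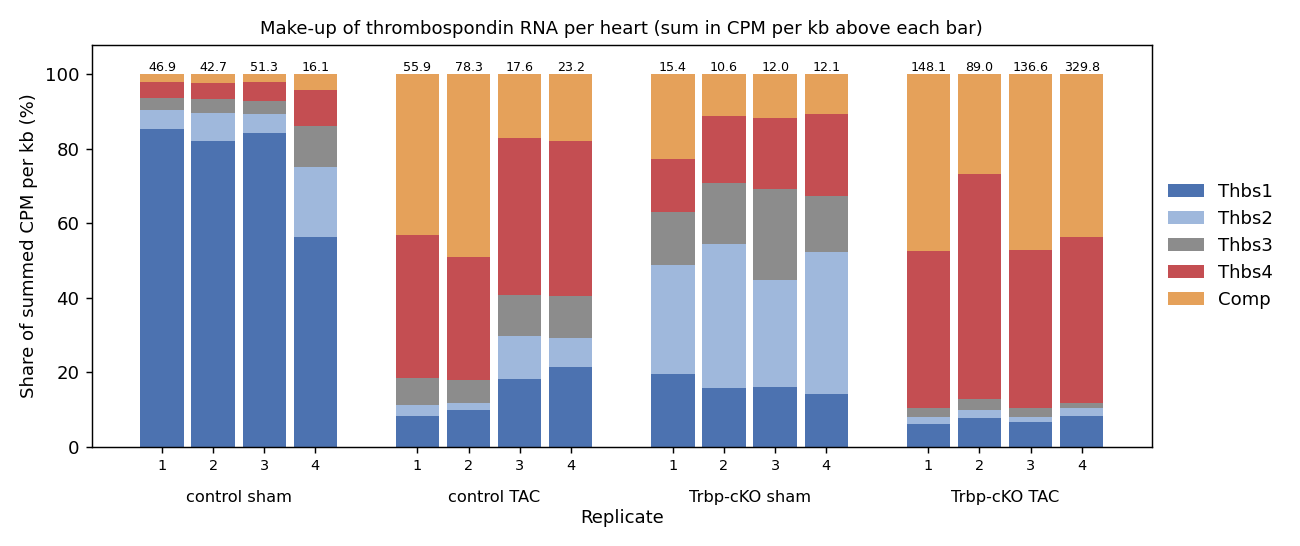
Stacked bars give the share of each thrombospondin in the summed CPM per kb of exon (%) for each of the 16 hearts, with the sum in CPM per kb above each bar and hearts ordered by group and replicate. Thbs1 fills most of every control sham bar, Thbs2 is the largest piece in each Trbp-cKO sham bar, and Thbs4 and Comp fill most of each TAC bar.

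Thbs1, the trimeric activator of latent TGF-β, stood at 243, 213, 262 and 55 CPM in control sham hearts. Control TAC hearts had 28.2, 46.1, 19.5 and 30.1 CPM, all below the lowest control sham heart. Trbp-cKO sham hearts had 18.2, 10.2, 11.7 and 10.3 CPM, and Trbp-cKO TAC hearts 55.6, 42.2, 53.7 and 166 CPM. TAC thus went with a lower level in controls and a higher level in Trbp-cKO hearts, and in neither genotype did the sham and TAC hearts overlap. On the log2 scale the TAC difference was -2.64 ± 0.50 (SE) in controls and 2.66 ± 0.50 in Trbp-cKO hearts, which makes the difference between those differences (the interaction) 5.30 ± 0.71. The deletion difference was -3.94 ± 0.53 in sham hearts, a 15.4-fold lower level, and 1.36 ± 0.48 in TAC hearts, where the groups overlapped. Leaving out Trbp-cKO TAC replicate 4, the highest of its group, reduced the last value to 0.71, the TAC difference in Trbp-cKO hearts to 2.01 and the interaction to 4.65. Control sham replicate 4 stood far below the other control sham hearts, and without it the deletion difference in sham hearts was -4.25.

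Thbs2, the trimeric regulator of collagen fibrils, had group means between 12.1 and 29.3 CPM. Control sham hearts had 17.2, 22.6, 18.9 and 21.5 CPM and control TAC hearts 11.3, 10.7, 14 and 12.5 CPM, without overlap. Trbp-cKO sham hearts had 31.7, 28.8, 24.2 and 32.4 CPM, all above every control sham heart. In Trbp-cKO TAC hearts 3 values lay at 17.2, 13.2 and 13.7 CPM and replicate 4 at 48.3 CPM. The TAC difference was -0.72 ± 0.32 in controls and -0.34 ± 0.32 in Trbp-cKO hearts, and the deletion difference was 0.55 ± 0.32 in sham and 0.93 ± 0.32 in TAC hearts. That one heart carried much of the values it enters. Without it, the TAC difference in Trbp-cKO hearts was -1.0, the deletion difference in TAC hearts 0.28, and the interaction moved from 0.38 ± 0.45 to -0.27.

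Thbs3, a pentameric member, was the least changed of the 3 that were higher after TAC. It stood at 7.04, 7.36, 8.16 and 8.39 CPM in control sham hearts and at 19.6, 23.1, 9.47 and 12.7 CPM in control TAC hearts. Trbp-cKO sham hearts had 10.5, 8.36, 14.1 and 8.69 CPM and Trbp-cKO TAC hearts 18.1, 12.6, 16.1 and 23.2 CPM, a pair of groups that overlapped. The TAC difference was 1.07 ± 0.25 in controls and 0.75 ± 0.25 in Trbp-cKO hearts, and the deletion difference was 0.43 ± 0.25 in sham and 0.11 ± 0.25 in TAC hearts. The highest control TAC values belonged to replicates 1 and 2, the pair with low cardiomyocyte markers. With that pair left out, the TAC difference in controls was 0.52 and the deletion difference in TAC hearts 0.64. The latter had no stable direction, being -0.08 without control TAC replicate 3 and -0.05 without Trbp-cKO TAC replicate 4.

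Thbs4, the pentameric member tied to pressure overload, was low in every sham heart and higher in every TAC heart. Control sham hearts had 6.72, 6.32, 8.66 and 5.16 CPM and Trbp-cKO sham hearts 7.16, 6.32, 7.54 and 8.84 CPM, which overlapped. After TAC the control hearts had 70.4, 85.3, 24.3 and 31.8 CPM and the Trbp-cKO hearts 205, 177, 191 and 482 CPM. Each Trbp-cKO TAC heart was thus at least 177 CPM and no control TAC heart was above 85.3 CPM. The TAC difference was 2.98 ± 0.41 in controls, a 7.88-fold higher level, and 5.14 ± 0.45 in Trbp-cKO hearts, a 35.3-fold higher level. Deletion went with a difference of 0.15 ± 0.38 in sham hearts and 2.32 ± 0.39 in TAC hearts, and the interaction was 2.17 ± 0.54. Without control TAC replicates 1 and 2 the TAC difference in controls was 2.06 and the deletion difference in TAC hearts 3.22. Without Trbp-cKO TAC replicate 4 the latter was 1.85.

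Comp, the cartilage and tendon member, had, in control TAC hearts, a spread as wide as its mean (51.8 ± 50.7 CPM, SD, n = 4). Control sham hearts had 2.78, 2.83, 3.24 and 2.03 CPM, and all Trbp-cKO sham hearts lay above them at 10.4, 3.51, 4.19 and 3.78 CPM. Control TAC hearts had 71.6, 114, 8.98 and 12.3 CPM and Trbp-cKO TAC hearts 209, 70.5, 191 and 428 CPM. Replicates 1 and 2 of the control TAC group reached the level of the lowest Trbp-cKO TAC heart, while replicates 3 and 4 did not. The TAC difference was 4.25 ± 0.78 in controls and 5.37 ± 0.81 in Trbp-cKO hearts. The deletion difference was 1.00 ± 0.71 in sham hearts, of which replicate 1 of the Trbp-cKO group made up a large share, since the value without it was 0.48. In TAC hearts the deletion difference was 2.12 ± 0.70, and without control TAC replicates 1 and 2 it was 4.39, while the TAC difference in controls was then 1.96. Without replicate 2 of the pair alone these values were 2.86 and 3.50.

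**Figure D2:**
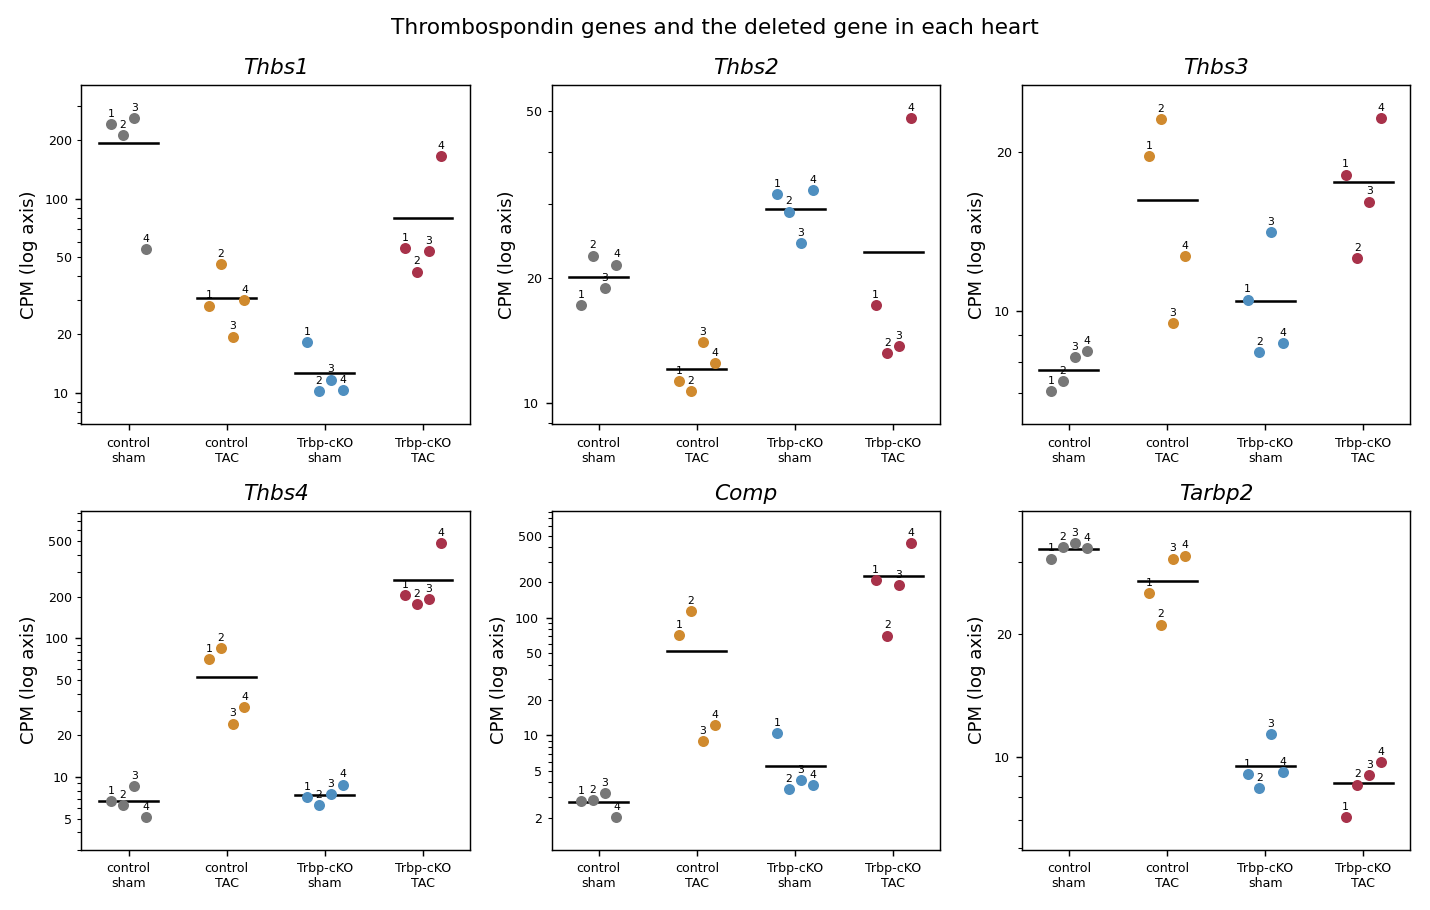
Points give the CPM of each heart (log axis) for the 5 thrombospondins and Tarbp2 in the 4 groups, with the replicate number above each point and a line at the group mean (n = 4). Thbs1 is highest in control sham hearts, Thbs4 and Comp are highest in Trbp-cKO TAC hearts, and control TAC replicates 1 and 2 lie above replicates 3 and 4 for Thbs3, Thbs4 and Comp.

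A gene was called different where the adjusted p of edgeR's quasi-likelihood test was at most 0.05 and the absolute log2 fold change at least 0.8. For the thrombospondins the counts of calls are given beside those of all genes as a description, and nothing is read from them, since the same contrasts chose the members. In TAC against sham in controls, 4 of the 5 were called (Thbs1 lower, Thbs3, Thbs4 and Comp higher), where 3.75% of the 19955 genes were called, 2.5% as higher and 1.25% as lower. In TAC against sham in Trbp-cKO hearts, 3 were called (Thbs1, Thbs4 and Comp, all higher), against 5.57% of all genes, 3.23% higher and 2.34% lower. Deletion in sham hearts called Thbs1 alone, as lower, against 0.967% of all genes (0.511% higher and 0.456% lower). Deletion in TAC hearts called Thbs4 alone, as higher, against 2.46% (1.55% higher and 0.912% lower). Thbs1 was also the one member called for the interaction, where 0.872% of all genes were (0.446% higher and 0.426% lower).

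**Figure D3:**
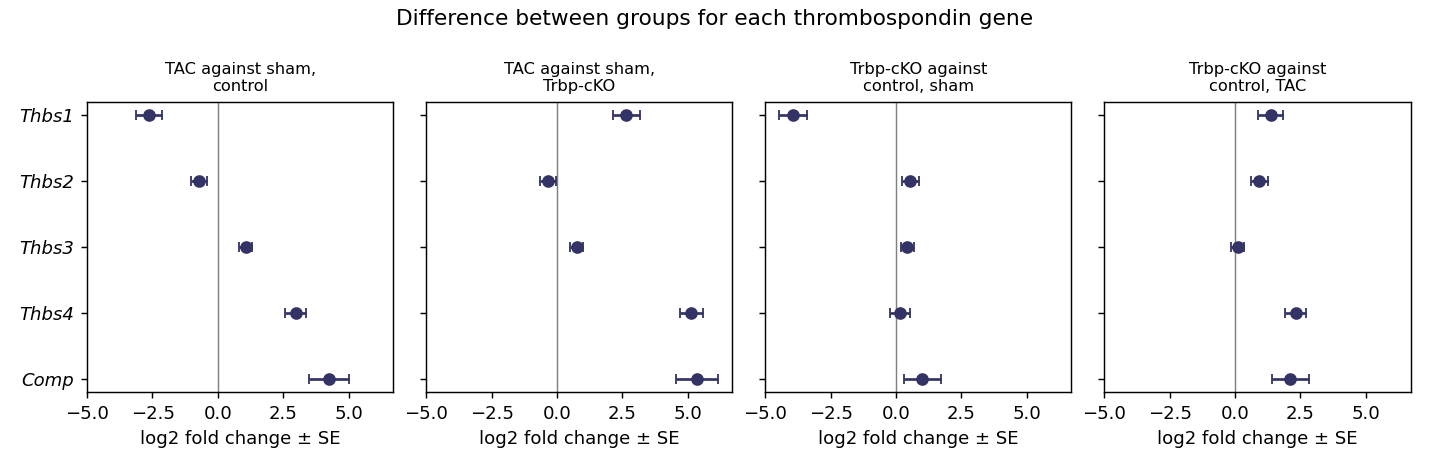
Points give the log2 fold change of each thrombospondin in the 4 comparisons of groups, with bars of 1 SE from the fit across all genes (n = 4 hearts in each group). Thbs1 is lower with TAC in controls and with deletion in sham hearts but higher with TAC in Trbp-cKO hearts, and Thbs4 and Comp are higher with TAC in both genotypes.

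Thbs3, Thbs4 and Comp had similar patterns over the hearts. Over the 16 hearts, log2 CPM of Thbs4 and Comp had a Pearson r of 0.97, Thbs3 and Comp 0.90, and Thbs3 and Thbs4 0.83. After each group's mean was taken out the values were 0.86, 0.84 and 0.80. In the TAC groups the same hearts were high for all 3, replicates 1 and 2 in controls and replicate 4 in Trbp-cKO hearts. In the sham groups they were not. Control sham replicate 4 had the highest Thbs3 and the lowest Thbs4 and Comp, and in Trbp-cKO sham hearts Comp was highest in replicate 1, Thbs3 in replicate 3 and Thbs4 in replicate 4. Thbs1 and Thbs4 had an r of 0.15 over all hearts and 0.68 after the group means were taken out. Thbs2 had no r above 0.43 with another member on either measure. These are descriptions over hearts that share groups and library scaling.

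For each member, the 3 genes with the most similar log2 CPM over the 16 hearts were taken from 12955 genes. Beside Thbs4 stood Fmod, which encodes the collagen-binding proteoglycan fibromodulin (r = 0.992), Col12a1, which encodes a fibril-associated collagen (0.990), and Dpysl3 (0.984). Beside Comp stood 1500015O10Rik (0.991), Col8a2, which encodes a chain of the network-forming collagen VIII (0.988), and Serpinf1 (0.982). Thbs3 stood closest to Kdelc2 (0.973), Clic1 (0.969) and Impdh1 (0.967). Those most like Thbs2 were Appl2 (0.844), Fkbp10, a chaperone of collagen folding (0.844), and the proteoglycan gene Ogn (0.836). The genes most like Thbs1 were Cdkn1a, the cell cycle inhibitor p21 (0.882), the circadian transcription factor gene Clock (0.864) and Dhx15 (0.849). After each group's mean was taken out, r with Thbs1 was 0.677 for Cdkn1a, 0.362 for Clock and 0.482 for Dhx15. For the genes beside Thbs2 it was then 0.873, 0.805 and 0.81, and for those beside Thbs3, Thbs4 and Comp it was 0.89 to 0.975.

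Heart-by-heart values are given for Fmod and Cdkn1a, which were picked for their likeness over these same hearts. Fmod had 0.606, 0.833, 1.33 and 0.582 CPM in control sham hearts and 20.5, 24.7, 3.20 and 5.49 CPM in control TAC hearts. It had 56.3, 55.9, 47.4 and 217 CPM in Trbp-cKO TAC hearts, so its highest heart was the same replicate 4 as for Thbs4. Cdkn1a had 78.7, 49.8, 86.1 and 66.1 CPM in control sham, 27.8, 39, 23.8 and 32.3 in control TAC, 26.3, 19.4, 26.4 and 17.4 in Trbp-cKO sham and 55.3, 54.9, 50.4 and 148 in Trbp-cKO TAC hearts. As for Thbs1, every control sham heart lay above every control TAC and every Trbp-cKO sham heart, and Trbp-cKO TAC replicate 4 was the highest of its group. Control sham replicate 4, low for Thbs1, was not low for Cdkn1a.

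This gene list and those that follow were chosen with earlier results of these data known. Their counts and p-values are therefore a description and no independent test. Over all genes tested, 3.75% were called for TAC in controls, 5.57% for TAC in Trbp-cKO hearts, 0.967% for deletion in sham and 2.46% for deletion in TAC hearts. Of 22 genes of cell surface receptors for thrombospondins tested, 1 rose and 2 fell with TAC in controls, 4 rose with TAC in Trbp-cKO hearts, 1 fell with deletion in sham hearts and 1 rose with deletion in TAC hearts. The median log2 fold changes were 0.04, 0.18, -0.02 and 0.30, beside 0.02, 0.00, 0.01 and -0.01 over all genes tested. The 3 calls for TAC in controls fell to 1 without control sham replicate 3 and without control TAC replicate 1 or 2, and the count for deletion in TAC hearts ran from 0 without control TAC replicate 2 to 2 without control TAC replicate 3. In the same order, 8, 12, 4 and 9 of the 22 had an unadjusted p under 0.05 in edgeR's quasi-likelihood test. Cd36 and Cd47, the best known receptors of Thbs1, were not called in any contrast. Cd36, which also takes up fatty acids, stood at 1250.2 to 1329 CPM in control sham and 805 to 1009.6 CPM in control TAC hearts, a log2 difference of -0.48 ± 0.12 whose adjusted p by edgeR's quasi-likelihood test was 0.0352 but whose size was under the limit of 0.8. In Trbp-cKO hearts Cd36 was likewise lower after TAC, at 813 to 1027 CPM against 1173 to 1346 CPM after sham. Cacna2d1, the calcium channel subunit that binds thrombospondins, had a log2 fold change of -0.43 ± 0.22 with TAC in controls (edgeR adjusted p = 0.22).

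Sdc4, the heparan sulfate proteoglycan syndecan-4, ran in the direction of Thbs1. It had 34.1, 31.7, 37.4 and 20.7 CPM in control sham and 18.1, 15.1, 16.3 and 19.6 CPM in control TAC hearts. Trbp-cKO hearts had 24.6, 19.1, 19.1 and 18.9 CPM after sham and 29.2, 27.3, 33.1 and 36.3 CPM after TAC. It fell with TAC in controls (-0.84 ± 0.16, edgeR adjusted p = 0.00909) and rose with deletion in TAC hearts (0.86 ± 0.16, 0.00662), and the interaction was 1.47 ± 0.23 (0.00779). Both pairwise calls were lost without control TAC replicates 1 and 2, and also without replicate 2 alone, without control sham replicate 3 for TAC in controls and without Trbp-cKO TAC replicate 4 for deletion, whereas the interaction was still called without each of these. Without control TAC replicates 1 and 2 the TAC difference was -0.79 (edgeR adjusted p = 0.109). For deletion in TAC hearts the log2 fold change lay between 0.79 and 1.0 over the 26 alternatives with a highest adjusted p of 0.0447, so that this call was lost at the limit of 0.8 and not by its p. Itga5, the fibronectin receptor subunit α5, fell with deletion in sham hearts (-0.83 ± 0.20, edgeR adjusted p = 0.0446) and rose with TAC in Trbp-cKO hearts (1.13 ± 0.20, 0.00170), with an interaction of 1.26 ± 0.28 (0.0416). The sham call of Itga5 held in 13 of 26 alternatives and its interaction in 11 of 24. Itga9 rose with TAC in Trbp-cKO hearts by 1.16 ± 0.20 (edgeR adjusted p = 0.00157). Itgb3 was called there too (1.51 ± 0.39, 0.0234), with 14.2 CPM in replicate 4 and 3.53 to 4.96 CPM in the other 3 hearts, and was not called without that heart or without Trbp-cKO sham replicate 1, 2 or 4.

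Of 18 ligands that thrombospondins bind in the matrix, 5 rose with TAC in controls, 10 rose and 1 fell with TAC in Trbp-cKO hearts, and 6 rose with deletion in TAC hearts, while none was called with deletion in sham hearts. The count of 0 in sham hearts stood beside 9 genes with an unadjusted p under 0.05 in edgeR's quasi-likelihood test and 0 by DESeq2. Median log2 fold changes were 0.52, 0.96, 0.51 and 0.28. With 1 heart left out, the 5 calls for TAC in controls came to 3 without control sham replicate 1 or 3 or control TAC replicate 1 or 2. Without control TAC replicates 1 and 2 the counts were 1 for TAC in controls and 7 for deletion in TAC hearts, and without Trbp-cKO TAC replicate 4 they were 6 and 3, with 7 higher and none lower for TAC in Trbp-cKO hearts.

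Tgfb2, a TGF-β isoform held latent in the matrix, had 10.7, 12.9, 14.3 and 12.9 CPM in control sham and 33.5, 40.4, 23.5 and 28.8 CPM in control TAC hearts. Trbp-cKO hearts had 14.6, 16, 15.4 and 16.1 CPM after sham and 83.6, 79.4, 99.8 and 68.3 CPM after TAC. In neither genotype did sham and TAC hearts overlap. Tgfb2 rose with TAC by 1.31 ± 0.15 in controls (edgeR adjusted p = 0.000370) and by 2.41 ± 0.16 in Trbp-cKO hearts (7.43e-07), rose with deletion in TAC hearts by 1.39 ± 0.15 (0.000119), and its interaction was 1.10 ± 0.21 (0.0260). The 3 pairwise calls held in all 26 alternatives and the interaction in 17 of 24. Tgfb3 rose in the same 3 comparisons, by 1.05 ± 0.24 (edgeR adjusted p = 0.0194), 2.16 ± 0.24 (4.89e-05) and 1.72 ± 0.24 (0.000757), the first of these called in 19 of 26 alternatives and not without control TAC replicate 1 or 2 or control sham replicate 1, 3 or 4. Tgfb1, the isoform that Thbs1 is best known to activate, was not called in any contrast, with 24.8 to 37.6 CPM in control sham and 37.8 to 67.2 CPM in Trbp-cKO TAC hearts. Fn1, the fibronectin gene, rose with deletion in TAC hearts (1.07 ± 0.15, edgeR adjusted p = 0.000779) and with TAC in Trbp-cKO hearts (1.38 ± 0.15, 3.97e-05). Col1a1, a chain of the fibrillar collagen that Comp and Thbs2 bind, rose with TAC in both genotypes, by 1.21 ± 0.21 (edgeR adjusted p = 0.00561) and 1.74 ± 0.21 (0.000110), and with deletion in TAC hearts by 1.00 ± 0.21 (0.0129), a call lost without Trbp-cKO TAC replicate 4. Its call for TAC in controls was lost without control TAC replicates 1 and 2, where the difference was 0.85 (edgeR adjusted p = 0.0784).

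Among 9 proteases known to cleave thrombospondins, none was called with TAC in controls or with deletion in sham hearts, where 2 and 3 had an unadjusted p under 0.05 in edgeR's quasi-likelihood test and DESeq2 called 1 (Htra1, lower) and 0. Adamts4 was called lower with deletion in sham hearts by edgeR's exact test and by the fit of these 2 groups alone. It had 2.58 to 4.1 CPM in control sham and 0.772 to 1.41 CPM in Trbp-cKO sham hearts, with no overlap. With TAC in Trbp-cKO hearts 2 rose and 3 fell, and without Trbp-cKO TAC replicate 4 none rose and 2 fell. Mmp2 and Mmp9, both called there with all hearts, are also counted among the ligands above. Adamts7, a protease known to cleave Comp, had 18.5, 21.7, 15.6 and 20.9 CPM in Trbp-cKO sham hearts and 5.88, 7.29, 4.90 and 6.72 CPM in Trbp-cKO TAC hearts. The groups were far apart, and Adamts7 fell by 1.63 ± 0.21 on the log2 scale (edgeR adjusted p = 0.000198). In controls it had 11.1 to 15.8 CPM after sham and 8.46 to 18.4 CPM after TAC, which overlapped. It fell with deletion in TAC hearts by 0.98 ± 0.21 on the log2 scale (edgeR adjusted p = 0.0152), and the interaction was -1.52 ± 0.30 (0.0268). The deletion call was lost without control TAC replicate 3, and the interaction was called in 16 of 24 alternatives. In Trbp-cKO TAC hearts the means were 6.2 CPM for Adamts7 and 225 CPM for Comp. Mean Adamts7 was 19.2 CPM in Trbp-cKO sham and 13.2 CPM in control sham hearts, where mean Comp was 5.47 and 2.72 CPM. In control TAC hearts the means were 12.2 CPM for Adamts7 and 51.8 CPM for Comp. Comp protein was not measured here, and a link between the 2 genes was not tested. Mmp2, a gelatinase cleared through Thbs2, rose in Trbp-cKO hearts with TAC (1.02 ± 0.23, edgeR adjusted p = 0.00998) and with deletion after TAC (1.10 ± 0.23, 0.0129), both lost without Trbp-cKO TAC replicate 4.

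Other proteins share the type 1 repeats of Thbs1 and Thbs2, and 46 of their genes were tested. TAC called 5 higher and 1 lower in controls and 12 higher and 4 lower in Trbp-cKO hearts, and deletion called 2 higher and 1 lower in sham and 5 higher and 2 lower in TAC hearts. Their medians (0.29, 0.22, 0.15 and -0.04) stood beside 0.02, 0.00, 0.01 and -0.01 over all genes. Without control TAC replicates 1 and 2, the counts for TAC in controls were 2 higher and 0 lower, and for deletion in TAC hearts 7 and 1. With 1 heart left out, the 6 calls for TAC in controls came to 4 without control sham replicate 1 or 3 or control TAC replicate 1 or 2, and to 10 without control TAC replicate 3. The 3 sham calls were Ccn2, Ccn5 and Rspo3. All of them were lost without control sham replicate 3 and without Trbp-cKO sham replicate 4, and Ccn5 held in 12 and Rspo3 in 10 of 26 alternatives. Over these 26, the log2 fold change lay between 1.34 and 1.83 for Ccn5 and between 1.3 and 2.27 for Rspo3. For Ccn2 it lay between -1.37 and -0.67. Ccn2, the connective tissue growth factor, had 194, 172, 192 and 131 CPM in control sham and 81.5, 60.6, 81.7 and 65.4 CPM in Trbp-cKO sham hearts. It had 257, 359.9, 163 and 308 CPM in control TAC and 1032, 721, 1088 and 1239 CPM in Trbp-cKO TAC hearts. Like Thbs1 it was lower with deletion in sham hearts (-1.25 ± 0.23, edgeR adjusted p = 0.0143) and higher with TAC in Trbp-cKO hearts (3.82 ± 0.25, 7.49e-07), while its value with TAC in controls was 0.66 ± 0.23 (0.0913). Its interaction was 3.16 ± 0.33 (edgeR adjusted p = 0.000604). The sham call of Ccn2 was lost without control sham replicate 3 and without Trbp-cKO sham replicate 2 or 4. Adamts8 rose with TAC in both genotypes (1.92 ± 0.26 and 3.07 ± 0.26, edgeR adjusted p = 0.00107 and 6.27e-06). Thsd4, which encodes a fibrillin-binding protein, rose with deletion in TAC hearts (1.68 ± 0.16, edgeR adjusted p = 3.02e-05), from 2.67 to 3.47 CPM in control TAC to 8.95 to 10.9 CPM in Trbp-cKO TAC hearts.

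Atf6, the stress sensor that Thbs4 is known to bind, was not called in any contrast. It had 35.7, 30, 87.7 and 93.5 CPM in control TAC hearts and 47.6 to 105 CPM in Trbp-cKO TAC hearts, against 77.7 to 95.1 CPM in control sham hearts. The lowest values were those of control TAC replicates 1 and 2. Of 22 genes of Atf6 and the chaperones of the endoplasmic reticulum, 1 fell with TAC in controls and none was called in the other comparisons, where 10, 2, 5 and 10 had an unadjusted p under 0.05 in edgeR's quasi-likelihood test for deletion in sham, deletion in TAC, TAC in Trbp-cKO hearts and the interaction. DESeq2 called 0, 0, 0 and 1 (Hyou1). The one that fell was Hspa5, the chaperone BiP, which fell by 0.83 ± 0.19 on the log2 scale (edgeR adjusted p = 0.0227), a call lost without control TAC replicate 1 or 2 and without control sham replicate 1, 3 or 4. The median log2 fold changes of the list were -0.34 with TAC in controls, -0.30 with deletion in sham, 0.07 with deletion in TAC and 0.06 with TAC in Trbp-cKO hearts, and 0.38 for the interaction. Of the 22 genes, 2, 3, 16, 14 and 20 had values above 0.

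Comp and Thbs4 are both expressed in tendon, and 10 genes of tendon and of matrifibrocytes, the fibroblasts of mature scars, were read beside them. Of these, 6 rose with TAC in controls, 8 rose and 1 fell with TAC in Trbp-cKO hearts, 6 rose with deletion in TAC hearts and 1 rose with deletion in sham hearts. In the same order, 3.75%, 5.57%, 2.46% and 0.967% of all genes were called. These counts are a description, since the list was chosen with earlier results of these data known. The medians were 2.00, 2.82, 1.53 and 0.69, beside 0.02, 0.00, -0.01 and 0.01 over all genes. Without control TAC replicates 1 and 2, the count for TAC in controls was 1 (Cilp) and that for deletion in TAC hearts 7. Without Trbp-cKO TAC replicate 4 the counts for TAC in Trbp-cKO hearts were still 8 and 1, and 5 rose with deletion in TAC hearts.

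Cilp, a cartilage matrix protein, had 10.5, 11.6, 16.1 and 13.7 CPM in control sham and 149, 179, 68 and 95.6 CPM in control TAC hearts. Trbp-cKO hearts had 21 to 37.8 CPM after sham and 338, 243, 282 and 621 CPM after TAC. The order of hearts was the one seen for Thbs4, with replicates 1 and 2 high in control TAC and replicate 4 highest in Trbp-cKO TAC. Cilp rose with TAC by 3.24 ± 0.35 in controls (edgeR adjusted p = 0.000226) and 3.65 ± 0.35 in Trbp-cKO hearts (1.74e-05), and with deletion in TAC hearts by 1.60 ± 0.33 (0.0115). Tnmd, the tendon gene tenomodulin, was at or under 0.146 CPM in every sham heart and at 3.63 to 17.4 CPM in Trbp-cKO TAC hearts. Scx, the transcription factor of tendon cells, behaved differently. It had 6.81 to 9.33 CPM in control TAC hearts, within the 7.69 to 10.1 CPM of control sham hearts apart from 2 lower hearts, and 16.9, 21.2, 23.7 and 26.7 CPM in Trbp-cKO TAC hearts. It rose with deletion in TAC hearts (1.45 ± 0.15, edgeR adjusted p = 8.75e-05) with an interaction of 1.77 ± 0.21 (0.00154). Mkx, a further tendon factor, rose with deletion in sham hearts (1.39 ± 0.29, edgeR adjusted p = 0.0255) and fell with TAC in Trbp-cKO hearts by 1.53 ± 0.29 on the log2 scale (0.00318), at levels of 0.109 to 0.633 CPM. The sham call of Mkx held in 16 of 26 alternatives and was lost without any single Trbp-cKO sham heart and without control sham replicate 1, 2 or 3.

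**Figure D4:**
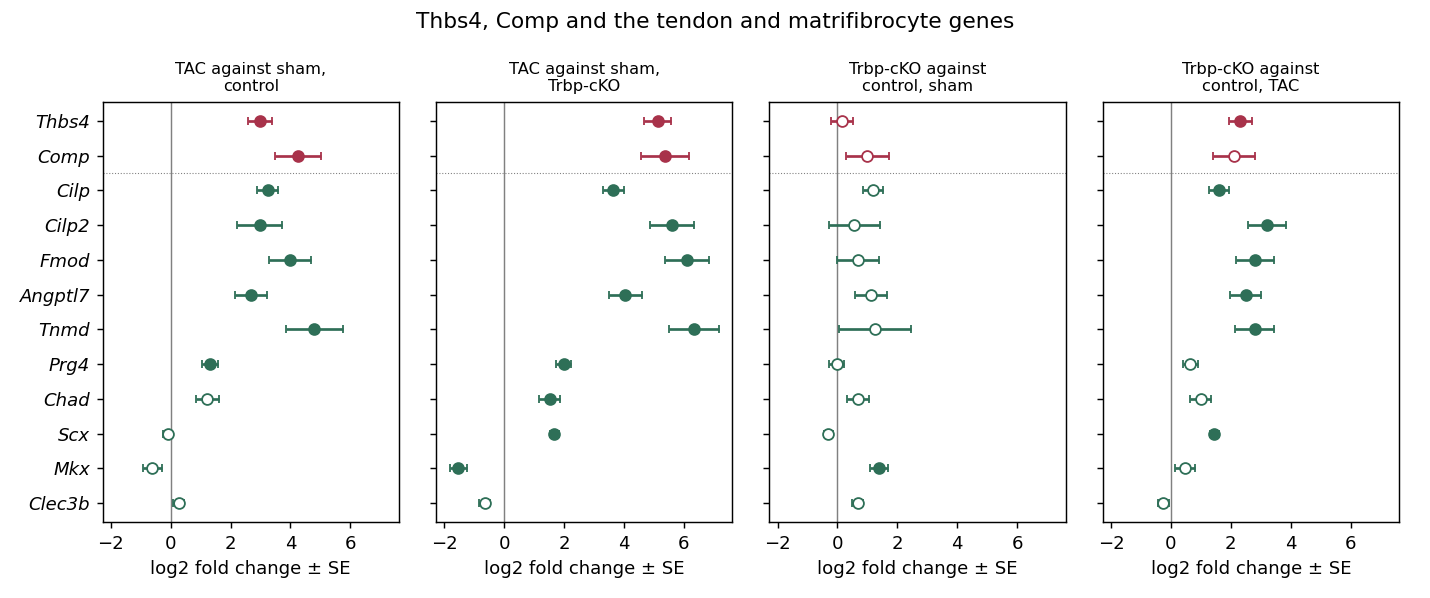
Points give the log2 fold change with bars of 1 SE for Thbs4 and Comp (above the dotted line) and the 10 tendon and matrifibrocyte genes in the 4 comparisons of groups, filled where the gene was called (adjusted p at most 0.05 and absolute log2 fold change at least 0.8). Cilp, Cilp2, Fmod, Angptl7 and Tnmd lie with Thbs4 and Comp in both TAC comparisons, and Scx is higher only in the comparisons that involve Trbp-cKO TAC hearts.

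Of 15 other matricellular genes, which encode secreted proteins that modulate matrix and cells as thrombospondins do, 2 rose with TAC in controls (Postn and Sparc), 7 rose with TAC in Trbp-cKO hearts, 2 rose with deletion in TAC hearts (Lgals3 and Postn) and none was called in sham hearts, where 2 had an unadjusted p under 0.05 in edgeR's quasi-likelihood test and DESeq2 called 0. The medians were 0.44, 0.39, 0.30 and 0.20. Postn, the periostin gene of activated fibroblasts, had 34.6 to 42.8 CPM in control sham and 388, 443, 150.2 and 195 CPM in control TAC hearts. Trbp-cKO sham hearts had 62.8 to 86.4 CPM and Trbp-cKO TAC hearts 699, 485, 539 and 1299 CPM. It rose with TAC by 2.92 ± 0.36 in controls (edgeR adjusted p = 0.000581) and 3.40 ± 0.36 in Trbp-cKO hearts (3.47e-05). Without Trbp-cKO TAC replicate 4, 3 were called in place of 7. Sparc, a collagen-binding glycoprotein, was called for TAC in controls in 16 of 26 alternatives, and not without any single control sham heart or without control TAC replicate 1 or 2. The call of Postn for deletion in TAC hearts was lost without Trbp-cKO TAC replicate 1 or 4 and without control TAC replicate 3 or 4. It was also lost by edgeR's exact test, in the fit of the 2 groups compared and with the replicate block. Its log2 fold change lay between 0.97 and 2.12 over the 26 alternatives. Postn is also among the 6 markers of activated fibroblasts, whose sum was 202 to 347 CPM in control sham, 272 to 652 in control TAC, 473 to 707 in Trbp-cKO sham and 957 to 1952 CPM in Trbp-cKO TAC hearts. The 6 markers did not move alike. For Postn, Cthrc1, Ltbp2, Tnc, Fap and Acta2, log2 fold changes with TAC in controls were 2.92, 2.53, 3.20, 1.19, 0.27 and -1.27. With deletion in sham hearts they were 0.88, 1.26, 1.12, -0.14, 0.26 and 1.18, so the sum is no measure of activated fibroblasts alone. The part of this sum in the levels of Thbs4 and Comp was not tested.

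Of 9 TGF-β-responsive genes, 3 rose with TAC in controls, 7 rose with TAC in Trbp-cKO hearts, 6 rose with deletion in TAC hearts, and 1, Ccn2, fell with deletion in sham hearts. The medians were 0.66, 2.77, 1.36 and -0.14. Ltbp2, a latent TGF-β binding protein of the matrix, had 5.83 to 8.58 CPM in control sham and 85.1, 111, 33.3 and 45.5 CPM in control TAC hearts. It had 10.5 to 21.1 CPM in Trbp-cKO sham and 219, 125, 167 and 333 CPM in Trbp-cKO TAC hearts, so that all 4 groups were separate. Ltbp2 rose with TAC by 3.20 ± 0.39 in controls (edgeR adjusted p = 0.000573) and 3.69 ± 0.40 in Trbp-cKO hearts (3.47e-05), and with deletion in TAC hearts by 1.62 ± 0.36 (0.0191). The deletion call was lost in the fit of the 2 groups compared and with the replicate block, with a log2 fold change of 1.31 to 2.41 over the 26 alternatives. The list shares Postn, Col1a1 and Ccn2 with lists above. Without Trbp-cKO TAC replicate 4, the count for deletion in TAC hearts was 3, Ccn2 and Ltbp2 among them, and without control TAC replicates 1 and 2 the count for TAC in controls was 2.

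Thbs1 is also known as an early response gene, and the immediate early genes were read beside it. Of 20 tested, 1 fell with TAC in controls, 5 fell with deletion in sham hearts, 1 rose with deletion in TAC hearts and 3 rose with TAC in Trbp-cKO hearts. The medians were -0.40, -0.93, 0.10 and 0.58. The 5 sham calls were Nr4a3, Fosl2, Egr3, Egr2 and Myc, and Nr4a3 alone was called without control sham replicate 3 or without any single Trbp-cKO sham heart. Control sham replicate 2 stood apart, with 2155 CPM summed over the immediate early genes against 837 to 893 CPM in the other 3 control sham hearts, and Fosl2, Egr3 and Egr2 were not called without it. The 3 calls for TAC in Trbp-cKO hearts fell to 1 without Trbp-cKO sham replicate 4 or Trbp-cKO TAC replicate 4. Nr4a3, a nuclear receptor of this class, had 27.8, 72.7, 49.9 and 36.9 CPM in control sham, 12.2, 11.5, 9.37 and 18.2 in control TAC and 9.41, 8.66, 13.5 and 15.3 CPM in Trbp-cKO sham hearts. As for Thbs1, no heart of the last pair of groups reached the lowest control sham heart. Nr4a3 fell by 1.87 ± 0.33 with TAC in controls (edgeR adjusted p = 0.00654) and by 2.00 ± 0.33 with deletion in sham hearts (0.00867), both on the log2 scale, with an interaction of 2.62 ± 0.46 (0.0169). The calls for TAC and for the interaction were lost without control TAC replicates 1 and 2, where the values were -1.77 (edgeR adjusted p = 0.108) and 2.52 (0.0639). The highest control sham heart was replicate 2 for Nr4a3 and replicate 3 for Thbs1. Fos, the best known of these genes, was not called in any contrast.

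A score of 15 circadian clock genes, the mean of their standardized log2 CPM with each gene signed by its arm of the clock, also ran with Thbs1. It lay between 0.51 and 1.22 in control sham, between -0.12 and 0.04 in control TAC and between -1.0 and -0.84 in Trbp-cKO sham hearts, with no overlap. In Trbp-cKO TAC hearts it was -0.38, -0.46, 1.02 and 0.33. The time of day at which hearts were collected is not given in the sources used here. With the score entered as a covariate (a setting added once the data had been seen), the deletion difference of Thbs1 in sham hearts was -2.54 and its interaction 3.76, and no gene of the 19955 was called for deletion in sham hearts. Tarbp2, the deleted gene itself, was thus not called there either. Without the score it was called (-1.76 ± 0.14, edgeR adjusted p = 2.38e-05). Since the score separated control sham, control TAC and Trbp-cKO sham hearts, its part and that of the groups cannot be told apart among these, whereas the Trbp-cKO TAC hearts spanned the control TAC hearts and overlapped control sham.

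**Figure D5:**
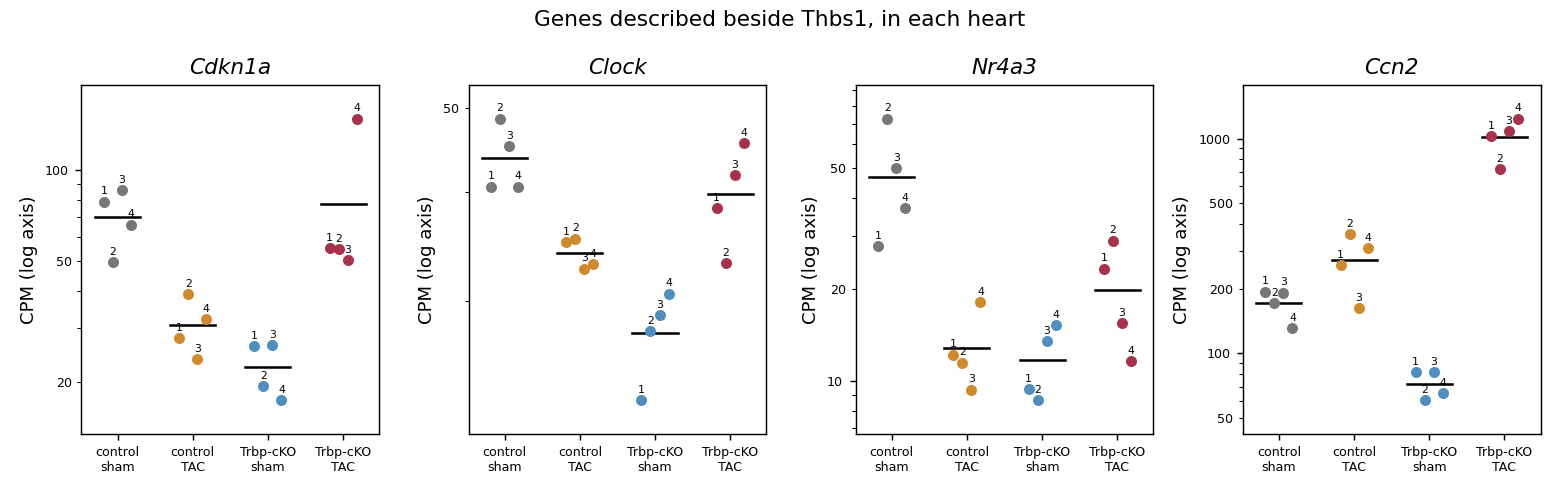
Points give the CPM of each heart (log axis) for Cdkn1a, Clock, Nr4a3 and Ccn2 in the 4 groups, with the replicate number above each point and a line at the group mean (n = 4). For Cdkn1a, Clock and Nr4a3 every control sham heart lies above every control TAC and Trbp-cKO sham heart, as for Thbs1, and Ccn2 is highest in Trbp-cKO TAC hearts.

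Of the 11 annotated protein-coding neighbours of the thrombospondins, 10 were tested, and none was called in any contrast by edgeR or by DESeq2. Unadjusted p-values under 0.05 came from 1 gene in each of the 4 comparisons of groups. Crtc1, which lies 288 bases from Comp, had 15.3 to 20.8 CPM in Trbp-cKO sham and 17.2 to 23.6 CPM in Trbp-cKO TAC hearts, groups between which Comp was 41.3-fold higher after TAC. Mtx1, whose exons overlap those of Thbs3, had a log2 fold change of -0.17 ± 0.10 with TAC in controls (edgeR adjusted p = 0.269).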

How the data were processed

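Per the labels and the study's methods, ventricular RNA was extracted with TRIzol, selected with oligo(dT) and sequenced as paired reads. The authors made the deposited counts per gene with cutadapt 2.3, HISAT2 2.1.0 and StringTie 1.3.4 on GRCm38, as the submitters' processing notes name them, and the strand setting is not given in the sources used here. The table of raw counts was used as deposited. StringTie derives its counts from coverage, so they estimate reads rather than tally them. Libraries held 45166994 to 68274222 counts, and the thrombospondins 115 to 30360 counts in a heart.

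Genes were kept by edgeR's filterByExpr (19955 of 55573), scaled by TMM and fitted in R 4.3.3 with edgeR 4.0.16 (glmQLFit and glmQLFTest, two-sided) on all 16 hearts with 1 coefficient per group, and p-values were adjusted by the Benjamini-Hochberg method over all genes tested. The scripts were tested on simulated data. Correlations and clock scores used log2 CPM with a prior count of 2. Alternatives were DESeq2 1.42.0, edgeR's exact test, scaling by library size, other filters, fold limits, a fit of the 2 groups compared, a replicate block and each heart left out. Leaving out control TAC replicates 1 and 2 and the clock score as a covariate were chosen after seeing the data. Hearts are separate mice per the labels, and no pair of libraries within a group agreed within counting noise.

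The thrombospondins and the gene lists were chosen with earlier results of these data known. Named genes were the 5 members, the 3 genes most like each (mean log2 CPM of at least 1), their neighbours, Tarbp2, and up to 4 called genes per list and contrast in order of p, plus genes needed as background to a member. Gene coordinates came from GENCODE M21 and promoter sequences from RefSeq (GRCm38.p6), which matched 3 of the 5 symbols. Results of 2 genes that the rule would name are not reported here.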

Additional observations from a re-analysis of the deposited data

Results flagged for a closer look

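Single hearts stood far from the others of their group for 4 thrombospondins. Trbp-cKO TAC replicate 4 was the highest heart of its group for Thbs1 at 166 CPM, for Thbs2 at 48.3 CPM and for Thbs4 at 482 CPM, and in each case its gap to the next heart took up more of the group's range than Dixon's 95% critical value for 4 samples. The same heart had the highest sum of activated fibroblast markers, 1952 CPM against 957 to 1473 CPM in the other 3. It also had the highest sum of cartilage and tendon markers (51.8 CPM) and the lowest of skeletal muscle markers (1218 CPM, almost none of it from Myh1, Myh2 or Myh4). The part of these markers in these levels was not tested. Comp in Trbp-cKO sham replicate 1 stood out in the same way at 10.4 CPM against 3.51 to 4.19 CPM. Chance marks about 1 in 20 groups by this measure.

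The TAC effect on Thbs1 was of opposite sign in the genotypes, with every control TAC heart below every control sham heart and every Trbp-cKO TAC heart above every Trbp-cKO sham heart. The difference between the effects was 5.30 on the log2 scale (4.65 without Trbp-cKO TAC replicate 4), and no p is given for it: Thbs1 was chosen for this pattern, so its call in the fit across all genes is no test, and the difference was not tested on other hearts.

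Among the listed genes, the TAC effect was higher in Trbp-cKO than in control hearts for Ccn2 (3.16 on the log2 scale), Scx (1.77), Sdc4 (1.47), Nr4a3 (2.62), Tgfb2 (1.10), Ccn4 (2.82), Egr2 (3.81), Atf3 (2.1) and Itga5 (1.26), each by edgeR's interaction test at an adjusted p of at most 0.05. It was lower for Adamts7 (-1.52) and Hmcn2 (-2.0). The lists were chosen with earlier results of these data known, so these calls are no independent test. Over 24 alternatives, the heart-by-heart omissions included, the interaction was called in 8 for Hmcn2, 10 for Atf3, 11 for Egr2 and for Itga5, 14 for Ccn4, 16 for Adamts7, 17 for Tgfb2, 21 for Nr4a3 and 23 for Ccn2, Scx and Sdc4. In control sham hearts Egr2 had 38.2 CPM in replicate 2 and 4.09 to 8.35 CPM in the other 3.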

How the results depend on the processing

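Of 640 values of the thrombospondins under alternatives, 617 moved by less than 1 SD between replicates, and 6 changed sign, the largest of them the Comp interaction, 1.12 with all hearts and no covariate. The settings that moved the rest were the 2 chosen after seeing the data and 1 heart, and the cause was not tested. With the clock score as a covariate, log2 fold changes were -0.50 for Thbs2 with TAC in controls and 1.82 for Thbs1 with TAC in Trbp-cKO hearts. For deletion in sham hearts they were -2.54 for Thbs1, 0.99 for Thbs2, 0.76 for Thbs3, 0.91 for Thbs4 and 2.45 for Comp, and for the interaction 3.76 for Thbs1, -0.12 for Thbs2, 1.34 for Thbs4 and -0.46 for Comp. That setting called 1 thrombospondin for TAC in controls and 0 for deletion in sham hearts and for the interaction. Of the 47 receptor, ligand and protease genes together it called 3 for TAC in controls, 6 for TAC in Trbp-cKO hearts, 8 for deletion in TAC hearts and 0 for deletion in sham hearts and for the interaction. Without control TAC replicates 1 and 2, TAC in controls gave 0.52 for Thbs3, 2.06 for Thbs4 and 1.96 for Comp, deletion in TAC hearts 0.64, 3.22 and 4.39, and the interaction 0.22, 3.08 and 3.40, with 1, 2 and 2 thrombospondins called and 1 partner gene for TAC in controls and 7 for the interaction. With each heart left out, Thbs2 ranged from 0.28 to 1.12 for deletion in TAC hearts, from -1.0 to -0.15 for TAC in Trbp-cKO hearts and from -0.27 to 0.57 for the interaction, the first value of each without Trbp-cKO TAC replicate 4. Calls of partner genes then ranged from 4 to 10, 0 to 1, 5 to 10, 12 to 18 and 1 to 5 for TAC in controls, deletion in sham, deletion in TAC, TAC in Trbp-cKO hearts and the interaction. DESeq2 called 4 thrombospondins for deletion in TAC hearts, where it called 745 of 37067 genes. For the interaction it called 2, with 7 partner genes, beside 535 of all genes. Scaling by library size called 3 thrombospondins for deletion in TAC hearts, beside 705 of all genes. It called 0 partner genes for deletion in sham hearts, as did the fit with no filter. The exact test called 2 thrombospondins and 2 partner genes for deletion in sham hearts. The fit of the 2 groups compared called 0 thrombospondins for deletion in TAC hearts, and 5, 2 and 2 partner genes for TAC in controls, deletion in sham and deletion in TAC hearts. A fold limit of 1 on the log2 scale called 4, 0 and 4 partner genes in these, and no fold limit 15, 2 and 14. Deviations of same-numbered hearts from their group means had r from -0.427 to 0.21 (24 pairs, median -0.0224). Hearts with different numbers were not compared in this way, so whether the numbers pair hearts was not tested. The fit with the replicate block called 3, 1, 1, 3 and 1 thrombospondins, and 0 partner genes for deletion in sham hearts and 1 for the interaction. Over all genes, calls for the 4 comparisons of groups (TAC in controls, deletion in sham, deletion in TAC, TAC in Trbp-cKO hearts) were 748, 193, 491 and 1112, against 1094, 371, 745 and 1337 by DESeq2, 304, 429, 84 and 1077 in the fit of the 2 groups, 383, 107, 274 and 859 with the block, 930, 600, 412 and 1382 by the exact test, 74, 0, 410 and 335 with the clock score, and 121, 325, 540 and 1374 without control TAC replicates 1 and 2. With each heart left out they ranged from 277 (without control TAC replicate 1) to 1583 (without control TAC replicate 4), from 74 (without Trbp-cKO sham replicate 2) to 268 (without Trbp-cKO TAC replicate 4), from 287 (without control TAC replicate 1) to 743 (without control TAC replicate 4) and from 836 to 1223. Interaction calls over all genes were 174 by edgeR's quasi-likelihood test and 535 by DESeq2. They were 154 with scaling by library size, 54 with the replicate block, 1 with the clock score and 130 without control TAC replicates 1 and 2. Scaling by library size called 682, 281, 705 and 1121 genes in the 4 comparisons of groups. It shifted the median log2 fold change of all genes by 0.138 for deletion in TAC hearts.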
